A study of Mus musculus with 6 samples.

Results

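The 40 genes described here encode factors that build ribosomes in the nucleolus, together with subunits of RNA polymerase I and its architectural factor UBTF. They were taken as a list by gene symbol, and all 40 were found among the 26214 gene rows of each count file. All 40 also passed the expression filter that left 14709 genes for testing. The cells were immortalized mouse brown preadipocytes brought to day 7 of differentiation in culture with insulin and T3, after an induction mix with IBMX, dexamethasone and indomethacin. They then received for 16 h either 100 nM rotenone, which inhibits complex I (the NADH dehydrogenase of the respiratory chain), or DMSO alone. Both groups are the same kind of immortalized cell, and the labels name no genotype, strain or separate culture of origin.

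Ribosome assembly starts with RNA polymerase I, which transcribes the ribosomal RNA genes into a long precursor. Small nucleolar ribonucleoproteins then modify that precursor, box C/D particles by methylating riboses and box H/ACA particles by converting uridine to pseudouridine. The small subunit processome cuts and folds the part that becomes the small (40S) subunit, and a separate chain of factors assembles the large (60S) subunit. Transcription of many of these factors is known to follow MYC and cell growth.

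The labels list 3 DMSO and 3 rotenone RNA-seq libraries. The 3 rotenone files held identical counts, with 0 genes differing between any pair, and were counted as 1 library; the comparison was therefore 3 libraries against 1. All replicate error therefore comes from the controls. The series' design text calls the replicates independent without naming cultures, so p-values reflect only how far the 3 controls differ, which may be technical variation. Total counts were 26085061 to 29194179 in the DMSO libraries and 21611589 in the rotenone library. General adipocyte markers were abundant (Fabp4 had a mean of 5121 CPM in DMSO), as was the brown fat gene Cidea at 704 CPM, whereas Dio2, another brown fat marker, had 7, 1, 0 and 0 counts. The brown fat marker Ucp1 had 74.3, 72.7 and 54.7 CPM in DMSO and 18.5 CPM with rotenone.

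Levels are given in CPM (read counts scaled to a common library size, on totals scaled by the TMM method of edgeR) in the order DMSO replicates 1, 2 and 3 and then the rotenone library. A gene is called higher or lower where edgeR's quasi-likelihood test gave a Benjamini-Hochberg adjusted p under 0.05 over all 14709 genes. Fold changes are on the log2 scale, rotenone over DMSO, with their standard error (SE). CPM is not corrected for transcript length, so levels of different genes are not ranked against each other.

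Most of the ribosome biogenesis genes were higher in the rotenone library. Of the 40, 35 were called higher and 0 lower, against a background of 27.6% of all genes tested called higher and 28.5% called lower. The members were chosen with earlier results of these data known, so this contrast is a description only. Of 172 other tested genes of the pathway, 87 were called higher and 21 lower, with a median log2 fold change of 0.29. Over all genes 4054 were called higher and 4197 lower, a split that became 3245 and 5153 when only library size was used for scaling; the members then gave 33 higher and 0 lower. Limma-voom and DESeq2 likewise called 35 members higher and 0 lower. The median log2 fold change of the members was 0.82, and that of all genes tested was -0.04. The rotenone library lay above every DMSO library for 39 members and below every DMSO library for Ddx10, while it lay above all of them for 41.5% of all genes. Of the 35 called genes, 13 rose by at least 2-fold, a size reached by 5.53% of all genes tested, 17 by 1.5-fold to 2-fold and 5 by less. Together the members took 1489, 1558 and 1539 CPM of the DMSO libraries and 2367 CPM of the rotenone library, a ratio of 1.55 (unscaled library totals). In bulk RNA, a change in the share of cells of one type and a change in RNA per cell cannot be told apart.

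The calls rest on the assumption that a rotenone library varies no more than the controls, since its own spread could not be measured. Members varied between DMSO libraries with a median coefficient of variation of 5.58%, from 1.25% for Nop2 to 13.7% for Nop16. With a coefficient of variation of 20% assumed for every gene, 20 members were called higher, against a background of 9.57% of all genes.

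**Figure D1:**
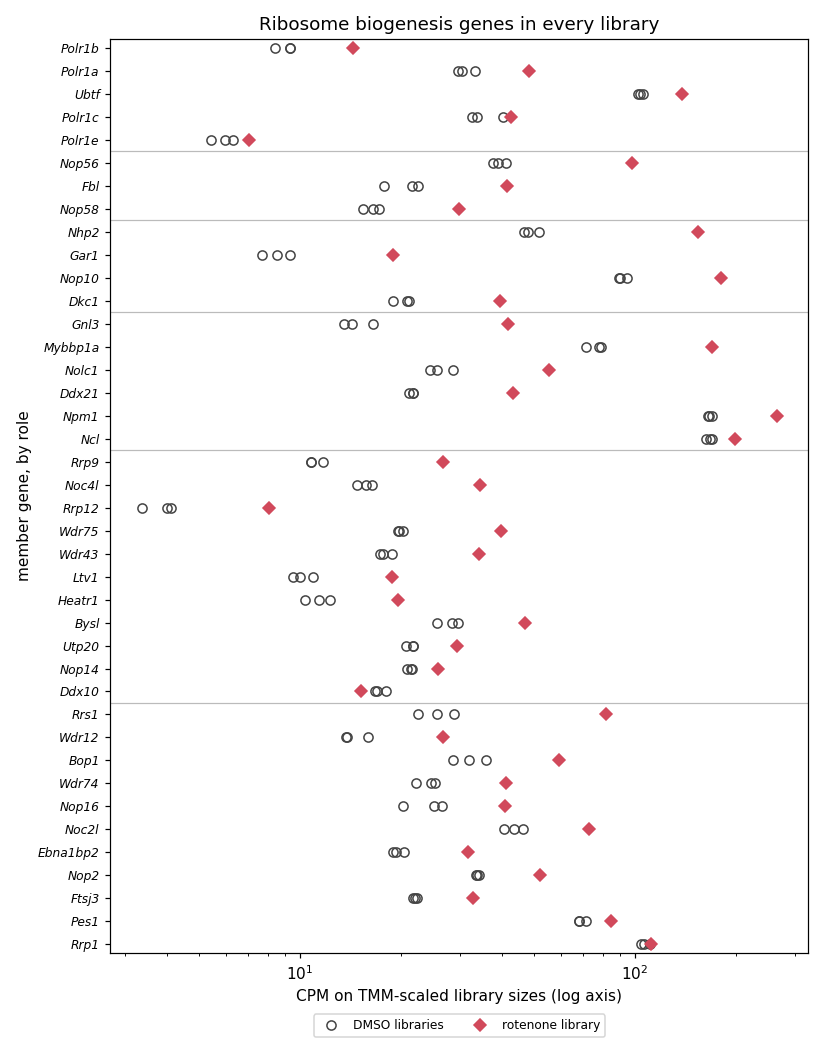
Level of each of the 40 genes in CPM (log axis) in the 3 DMSO libraries (open circles) and the rotenone library (diamonds), grouped by role from RNA polymerase I at the top to 60S assembly at the bottom. The diamond lies to the right of all 3 circles in 39 rows and to their left in the row of Ddx10.

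The promoters of the members at both ends of the range are shown to set their sequence beside their response. RefSeq promoter windows on GRCm38.p6, of 250 bases before to 50 after the start, matched 35 of the 40 members by symbol. For a symbol with several windows, the most upstream start was used, so match positions depend on that choice. Windows were searched on both strands for the canonical E-box CACGTG, the motif to which MYC binds, for the core CCGGAA of sites for ETS factors (TTCCGG on the other strand), and for the palindrome CTCGCGAG. Matches are in capitals, sequences run 5′ to 3′ on the strand of the gene, and the first 280 of the 300 bases of each window are printed. Nhp2 (chr11:51619523-51619802, plus strand) and Gnl3 (chr14:31019102-31019381, minus strand) had the largest rises among the 35. Ddx10 (chr9:53248083-53248362, minus strand) and Rrp1 (chr10:78413014-78413293, minus strand) had the lowest log2 fold changes. Nop2 (chr6:125131633-125131912, plus strand) was added after its values were seen, as the member with an E-box upstream of its start.
Nhp2: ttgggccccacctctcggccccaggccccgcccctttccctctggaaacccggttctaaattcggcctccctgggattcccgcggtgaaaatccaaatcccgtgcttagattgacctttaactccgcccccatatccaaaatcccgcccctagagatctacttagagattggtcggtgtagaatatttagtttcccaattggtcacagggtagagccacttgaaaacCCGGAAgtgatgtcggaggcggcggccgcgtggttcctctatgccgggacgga
Gnl3: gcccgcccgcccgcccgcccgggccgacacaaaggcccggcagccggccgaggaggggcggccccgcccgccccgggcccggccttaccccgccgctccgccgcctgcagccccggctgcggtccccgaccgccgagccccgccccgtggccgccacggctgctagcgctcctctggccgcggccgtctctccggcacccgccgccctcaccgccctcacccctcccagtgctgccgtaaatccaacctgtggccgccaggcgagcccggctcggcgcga
Ddx10: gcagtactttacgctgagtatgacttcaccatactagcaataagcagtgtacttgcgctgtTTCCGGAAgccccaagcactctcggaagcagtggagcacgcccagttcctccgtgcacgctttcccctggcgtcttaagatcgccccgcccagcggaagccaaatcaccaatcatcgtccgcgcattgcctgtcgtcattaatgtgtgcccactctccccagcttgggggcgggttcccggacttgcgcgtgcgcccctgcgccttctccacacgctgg
Rrp1: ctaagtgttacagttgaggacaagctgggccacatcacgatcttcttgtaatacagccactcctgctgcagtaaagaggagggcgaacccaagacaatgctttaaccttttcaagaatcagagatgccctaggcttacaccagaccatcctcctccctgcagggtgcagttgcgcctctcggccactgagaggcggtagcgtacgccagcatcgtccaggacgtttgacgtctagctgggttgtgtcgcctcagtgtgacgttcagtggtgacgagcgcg
Nop2: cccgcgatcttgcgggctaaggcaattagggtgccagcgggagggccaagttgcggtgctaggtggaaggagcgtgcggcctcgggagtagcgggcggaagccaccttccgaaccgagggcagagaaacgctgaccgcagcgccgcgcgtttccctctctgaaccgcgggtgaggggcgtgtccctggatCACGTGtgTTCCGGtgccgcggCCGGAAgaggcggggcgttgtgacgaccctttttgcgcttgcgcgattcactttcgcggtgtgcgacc

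Counted from 1 at the 5′ end, the Nhp2 window held CCGGAA at position 228 (offset -23 from the start). In Ddx10, which was not called, TTCCGG at 62 and CCGGAA at 64 overlap. The Nop2 window held CACGTG at 191, TTCCGG at 199 and CCGGAA at 213. No match was found in the windows of Gnl3 and Rrp1, which stood at opposite ends of the range. Among these 5 genes, matches occurred in both called and uncalled members.

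Across the 35 member windows, 6 (17.1%) held CACGTG, compared with 10.1% of the 11418 tested genes with a window and 7.24% of all 27025 genes in the table. The 6 were Mybbp1a, Wdr43, Utp20, Ltv1, Nop2 and Pes1, and in all but Nop2 the match lay downstream of the start. CCGGAA or its complement was present in 16 members (45.7%), 27.3% of tested genes and 15.2% of all genes. CTCGCGAG was in 0 of the 35 member windows and in 1.86% of tested genes. Members with an E-box had a median log2 fold change of 0.75 (n = 6) and those without one of 0.78 (n = 29). Over all tested genes with a window the order was the opposite, at 0.07 with an E-box (n = 1152) and -0.06 without (n = 10266). Members with CCGGAA had a median of 0.76 (n = 16) and those without it of 0.89 (n = 19), against 0.01 (n = 3120) and -0.07 (n = 8298) over all tested genes. None of these differences was tested. These are matches of letters in a fixed window and do not show binding.

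The RNA polymerase I subunits and UBTF had 3 of 5 genes called higher and a median of 0.42. Differences between roles were not tested. Polr1a encodes the largest, catalytic subunit and stood at 33.4, 30.5 and 29.6 CPM in DMSO and 48.2 CPM with rotenone. The rotenone library was above all DMSO libraries, a rise of 0.63 ± 0.10 (SE; adjusted p = 3.9e-05). Polr1b, the second largest subunit, which completes the catalytic centre, gave 8.41, 9.35, 9.32 and then 14.4 CPM and rose by 0.68 ± 0.17 (adjusted p = 0.0022). Ubtf encodes the factor that keeps ribosomal DNA open and recruits the polymerase. Its DMSO values were close together at 106, 102 and 103 CPM, and the rotenone library held 138 CPM, a rise of 0.42 ± 0.07 (adjusted p = 5.3e-05).

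Polr1c and Polr1e did not pass the test. Polr1c, a subunit shared with RNA polymerase III, had 33.7, 40.3, 32.6 and then 42.5 CPM, so DMSO replicate 2 came close to the rotenone library. Its log2 fold change was 0.26 ± 0.12 (adjusted p = 0.069), and it was called without DMSO replicate 2 and with no expression filter. Polr1e, which encodes a subunit of the heterodimer on the polymerase's flank, had 6.31, 5.95, 5.43 and then 7.05 CPM, the lowest counts of any member in the rotenone library (143 counts). Its log2 fold change was 0.25 ± 0.22 (adjusted p = 0.33). With the 20% coefficient of variation, 0 of these 5 genes were called.

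The genes for 3 proteins of the box C/D particle were measured here, and all 3 rose. Fbl encodes fibrillarin, the methyltransferase of the particle, and had 17.8, 22.4 and 21.6 CPM in DMSO and 41.4 CPM with rotenone. All controls lay well below the rotenone library, with DMSO replicate 1 the lowest, and the rise was 1.01 ± 0.13 (adjusted p = 1.5e-06). Nop56, a scaffold protein that pairs with NOP58 on the guide RNA, went from 37.7, 39.1 and 41.1 CPM to 98.1 CPM. It had the largest rise of the 3 at 1.32 ± 0.08 (adjusted p = 1.7e-10). Nop58 had 15.4, 17.2 and 16.5 CPM in DMSO and 29.8 CPM with rotenone, a rise of 0.86 ± 0.13 (adjusted p = 1.1e-05).

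Nop58, Nop56 and Gnl3 also carry small nucleolar RNA genes inside them, which are released from introns of the host transcript. Snord57, inside Nop56, had 32, 28, 38 and then 51 counts and rose by 1.12 ± 0.44 (adjusted p = 0.037). Snord11, inside Nop58, had 29, 18, 19 and then 41 counts and rose by 1.38 ± 0.53 (adjusted p = 0.034). Inside Gnl3, Snord69 had 9, 11, 12 and then 32 counts, a rise of 2.05 ± 0.66 (adjusted p = 0.013). Snord19, also inside Gnl3, had 1, 1, 2 and then 16 counts. It passed the expression filter only through the rotenone library, so its test is not used here. Of 19 small nucleolar RNA genes inside 6 members, 11 had a row. Snord82 and Snora75, both inside Ncl, gave 0.17 ± 0.27 and 0.08 ± 0.37 and were not called. These rows hold few counts, and RNA-seq of this kind is not designed to recover RNAs of their length.

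The genes for all 4 core proteins of the box H/ACA particle rose, with a median of 1.06. Dkc1 encodes dyskerin, the pseudouridine synthase, which is also part of telomerase. It had 21.1, 20.9 and 19.0 CPM in DMSO and 39.4 CPM with rotenone, a rise of 0.95 ± 0.11 (adjusted p = 8.6e-07). Nhp2, an RNA-binding partner of dyskerin, had 48.1, 51.8 and 46.6 CPM and then 154 CPM. The rotenone library stood far above the narrow range of the controls, and the rise of 1.66 ± 0.08 (adjusted p = 1.5e-12) corresponds to 3.15-fold.

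Gar1, which helps the enzyme to bind and release its substrate RNA, was low at 8.54, 9.31 and 7.71 CPM in DMSO and 18.9 CPM with rotenone. It rose by 1.15 ± 0.17 (adjusted p = 8.4e-06). Nop10, the smallest protein of the particle, had 90.3, 94.9 and 89.5 CPM and then 180 CPM, a rise of 0.97 ± 0.07 (adjusted p = 8.8e-10). All 4 box H/ACA genes and all 3 box C/D genes were called higher with the 20% coefficient of variation as well.

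The genes for abundant nucleolar proteins and regulators rose in 6 of 6 cases, by very different amounts. Ncl encodes nucleolin, which binds nascent ribosomal RNA, and gave 163, 167, 169 and then 198 CPM. Its rise of 0.25 ± 0.07 (adjusted p = 0.0032) was the smallest called among the 40 and was lost with scaling by library size only (log2 fold change 0.13). Npm1, nucleophosmin, a chaperone that holds the outer layer of the nucleolus together, gave 167, 170, 166 and then 265 CPM, a rise of 0.66 ± 0.06 (adjusted p = 5.7e-08). These genes had little spread among controls, so even the small difference of Ncl lay outside it.

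The other nucleolar genes of this role at least doubled. Gnl3 encodes nucleostemin, a GTPase of proliferating and stem cells, and had 14.3, 13.6 and 16.5 CPM in DMSO and 41.7 CPM with rotenone. Its rise of 1.5 ± 0.13 (adjusted p = 8.3e-09) was the third largest of all members. Mybbp1a, a MYB-binding nucleolar protein that takes part in pre-ribosomal RNA processing, went from 71.4, 78.1 and 79.4 CPM to 169 CPM, a rise of 1.15 ± 0.07 (adjusted p = 2.2e-10). For Nolc1, which encodes the Nopp140 chaperone of small nucleolar particles, 24.4, 25.6 and 28.7 CPM in DMSO stood beside 55.4 CPM with rotenone, a rise of 1.08 ± 0.11 (adjusted p = 7.5e-08). Ddx21, an RNA helicase that links polymerase I transcription to processing, had 21.1, 21.7 and 21.8 CPM and then 43.2 CPM, a rise of 1.00 ± 0.11 (adjusted p = 1.9e-07).

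**Figure D2:**
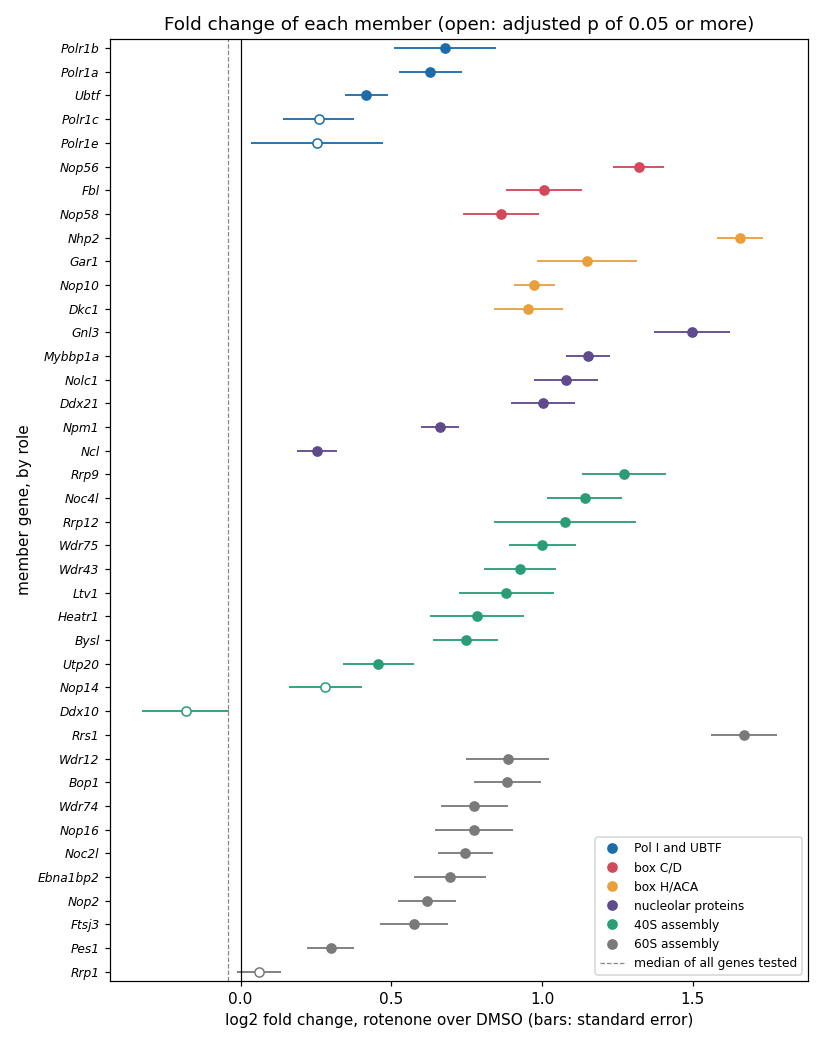
Log2 fold change of each gene, rotenone over DMSO, with bars for the standard error, coloured by role; open circles were not called and the dashed line is the median of all genes tested (-0.04). The 5 open circles are Polr1c, Polr1e, Nop14, Ddx10 and Rrp1, and the points farthest to the right are Rrs1 (1.67), Nhp2 (1.66) and Gnl3 (1.5).

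Of 11 genes for factors of the small subunit processome and 40S assembly, 9 rose and 0 fell, with a median of 0.88. Rrp9, the protein that marks the U3 particle, had 10.8, 10.8 and 11.7 CPM in DMSO and 26.8 CPM with rotenone. The rise was 1.27 ± 0.14 (adjusted p = 2.9e-07). Noc4l, the partner of NOP14 in 40S maturation, gave 14.8, 15.7, 16.4 and then 34.4 CPM and rose by 1.14 ± 0.12 (adjusted p = 2.4e-07). Rrp12, a factor in subunit maturation and nuclear export, was the least counted member in DMSO at 3.38, 4.12 and 4.01 CPM, against 8.08 CPM with rotenone. It rose by 1.08 ± 0.24 (adjusted p = 0.00072), with the largest SE of the 40 genes.

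The other 6 that rose were Wdr75, Wdr43, Ltv1, Heatr1, Bysl and Utp20, from 1.00 down to 0.46 on the log2 scale. Wdr75, Wdr43 and Heatr1 belong to the subcomplex that joins the precursor first, while Ltv1 and Bysl act late on the pre-40S particle. Heatr1 and Utp20 encode very large proteins, and their values were 0.78 ± 0.15 and 0.46 ± 0.12. Nop14 gave 20.9, 21.5, 21.5 and then 25.9 CPM; this difference of 0.28 ± 0.12 had an adjusted p of 0.055 and was called with median-ratio scaling. Ddx10, an RNA helicase, was the only member with a lower level in the rotenone library, 15.2 CPM against 16.7, 16.9 and 18.04 CPM. That difference of -0.18 ± 0.14 was not called (adjusted p = 0.29).

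Among 11 genes for factors of 60S assembly, 10 rose and 0 fell, with a median of 0.75. Rrs1, which brings the 5S ribonucleoprotein into the pre-60S particle, had the largest rise of all 40 genes. It lies on chromosome 1 (9545408 to 9547455, GRCm38) and had 25.6, 28.9 and 22.6 CPM in DMSO and 81.8 CPM with rotenone. The rise of 1.67 ± 0.11 (adjusted p = 3.7e-10) is 3.18-fold, against 3.15-fold for Nhp2, a gap smaller than either error. Pes1, Bop1 and Wdr12 encode the trimeric PeBoW complex, needed to process the precursor of the large subunit's RNA. Bop1 had 28.6, 31.98, 35.9 and then 59.3 CPM and rose by 0.88 ± 0.11 (adjusted p = 1.7e-06). Wdr12 gave 13.7, 15.9, 13.8 and then 26.8 CPM, a rise of 0.89 ± 0.14 (adjusted p = 2e-05). Pes1 differed from its partners in size, at 67.9, 68.3, 71.2 and then 85.0 CPM, a rise of 0.30 ± 0.08 (adjusted p = 0.0028). Its call was lost with scaling by library size only (0.18).

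The other 6 that rose, Wdr74, Nop16, Noc2l, Ebna1bp2, Nop2 and Ftsj3, lay between 0.58 and 0.78. Nop2 and Ftsj3 encode RNA methyltransferases, and Noc2l a factor that accompanies the particle out of the nucleolus. Nop16 varied most among controls, with 26.5, 20.3 and 25.1 CPM, but all lay below the 41.0 CPM of the rotenone library. Rrp1 gave 104, 111, 107 and then 112 CPM. Its 0.06 ± 0.07 (adjusted p = 0.5) was not called, and its sign was negative under library size scaling (-0.06) and with length and GC content corrected (-0.12).

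The row Rn45s is named for the ribosomal RNA precursor on which these factors act. This row does not separate reads of the precursor from reads of mature ribosomal RNA. It took 3.17%, 2.58% and 2.51% of the DMSO counts and 3.91% of the rotenone counts. Its log2 fold change was 0.63 ± 0.14 (adjusted p = 0.012). The sources used here do not state whether ribosomal RNA was depleted or polyadenylated RNA selected, and this level depends on how much ribosomal RNA each library retained. Leaving Rn45s out changed neither the count of members called higher (35) nor their median (0.82).

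**Figure D3:**
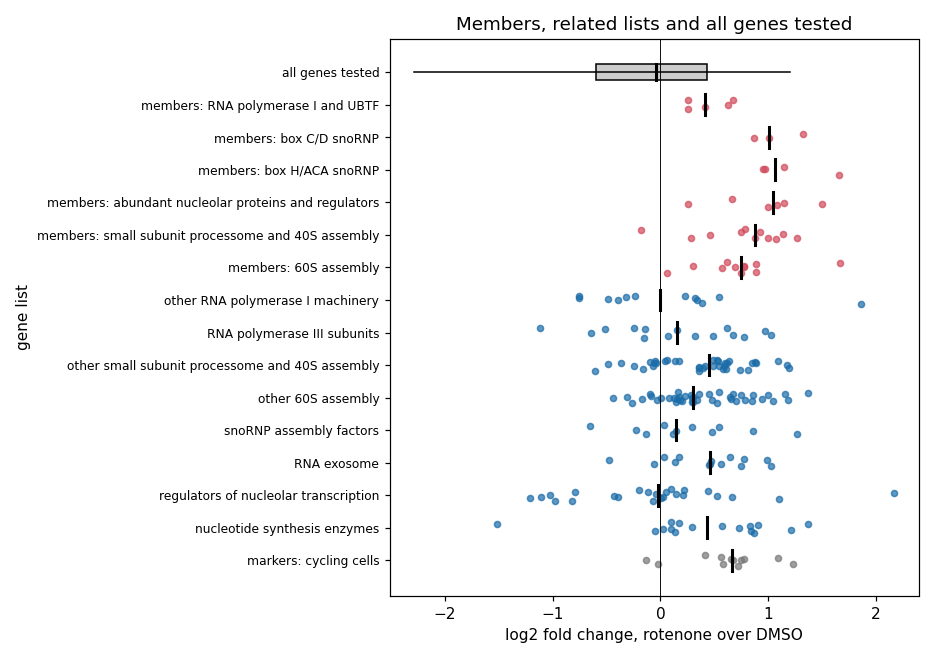
Log2 fold change of every tested gene in each role (red), in related lists (blue) and among markers of cycling cells (grey), with black bars for medians; for all genes tested the box spans the quartiles and the line the 5th to 95th percentile. The 6 role medians lie between 0.42 and 1.06, and the related lists have medians between -0.02 and 0.46.

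Other genes of the same pathway were taken from 8 lists, of which 87 of 172 tested genes (50.6%) rose and 21 fell. Over all genes tested, 27.6% were called higher and 28.5% lower, the background for every list count below. Of 38 other factors of 40S assembly, 24 rose and 3 fell, with a median of 0.45, and of 42 other factors of 60S assembly, 23 rose and 1 fell, with a median of 0.30. Among the first, Pno1, a late 40S factor, rose by 1.19 ± 0.13 and Utp14a by 1.17 ± 0.15. Tsr1, a GTPase-like factor of the pre-40S particle, fell by 0.61 ± 0.11 and Wdr3 fell by 0.49 ± 0.18. Among the second, Mrto4, a relative of the ribosomal stalk protein, rose by 1.37 ± 0.12 and Ddx31 by 1.19 ± 0.23. Ddx31 had a mean of 4.11 CPM in DMSO and 9.36 CPM with rotenone. It reached the mean of 5 CPM needed to be named only through the rotenone library. The GTPase gene Gnl2, a relative of Gnl3, fell by 0.44 ± 0.15. Of 14 RNA exosome genes, which trim precursors from the end, 9 rose and 1 fell (median 0.46); Exosc1 rose by 1.02 ± 0.18 and Exosc6 by 0.99 ± 0.14, and the cofactor gene Mphosph6 fell by 0.48 ± 0.16.

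The remaining parts of the polymerase I machinery did not move together. Of 12 genes outside the members, 6 rose and 3 fell, with a median of -0.01. Taf1d, a subunit of the promoter selectivity factor SL1, rose by 1.86 ± 0.12, from 12.6, 14.3 and 13.1 CPM to 48.3 CPM, and Taf1c by 0.54 ± 0.12. Ttf1, which terminates polymerase I transcription, fell by 0.76 ± 0.14. Cavin1, which also carries the name Ptrf and is a coat protein of caveolae abundant in fat cells, fell by 0.76 ± 0.07. With scaling by library size only, 3 of the 12 rose and 4 fell, and with length and GC content corrected, 3 rose and 3 fell. Of 15 RNA polymerase III genes, 7 rose and 3 fell (median 0.15); Crcp rose by 0.97 ± 0.13, while Polr3gl fell by 0.65 ± 0.11 and Brf1 by 0.52 ± 0.13.

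Of 11 factors that assemble small nucleolar particles, 4 rose (36.4%, against 27.6% of all genes tested) and 1 fell, with a median of 0.15. Tcof1, the treacle protein that also serves polymerase I, rose by 1.27 ± 0.12 and Nufip1 by 0.86 ± 0.13, while the cochaperone gene Rpap3 fell by 0.65 ± 0.16. Nucleotide synthesis, which supplies the building blocks of RNA, had 9 of 16 genes that rose and 1 that fell (median 0.43). Ctps, CTP synthase, rose by 1.37 ± 0.12 and Umps, which makes UMP, by 1.21 ± 0.08. Impdh1, an isoform of the enzyme that commits to guanine nucleotides, fell by 1.51 ± 0.08.

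Of 24 tested regulators of nucleolar transcription, 5 rose (20.8%, against 27.6% of all genes tested) and 8 fell, with a median of -0.02. With length and GC content corrected, 11 of them were called higher and 7 lower. Myc, the transcription factor known to drive ribosome biogenesis, had 27.7, 33.2 and 37.7 CPM in DMSO and 148 CPM with rotenone. Its rise of 2.17 ± 0.12 (adjusted p = 1.1e-07) exceeded that of every member, and the DMSO values, though spread, did not come near the rotenone value. Trp53, which encodes the p53 protein that is stabilised when ribosome assembly fails, rose by 1.10 ± 0.15. Mxd4, a competitor of MYC for its partner MAX, had spread DMSO values of 121, 86.9 and 92.7 CPM and then 43.5 CPM. Its fall of 1.21 ± 0.27 was not called at the stricter adjusted p of 0.01. Kdm2a, a demethylase reported to act at ribosomal DNA, fell by 1.11 ± 0.08. Whether Myc and the members are connected here was not tested.

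Several marker lists moved with the rise of the members. Their summed levels below are in CPM on unscaled library totals, unlike the levels of single genes. Of 12 markers of cycling cells, 10 rose and 0 fell, with a median of 0.66; their summed level was 1308 to 1355 CPM in DMSO and 1950 in the rotenone library, and none was at 0. Mcm2, a replication helicase subunit, rose by 1.24 ± 0.07 and Plk1 by 1.09 ± 0.11, while Mki67 gave -0.14 ± 0.08 and Bub1 -0.03 ± 0.15, neither called. Among 9 genes marking preadipocytes and fibroblasts, 6 rose and 1 fell, with summed levels of 1348 to 1524 in DMSO and 3494 with rotenone. The 6 were Col1a1, Col3a1, Acta2, Pdgfrb, Dlk1 and Thy1. Most of the rotenone sum came from Col1a1, Acta2 and Col3a1, with 2121, 852 and 477 CPM. Pdgfra fell by 1.11 ± 0.16, and Cd34 and Ly6a were not called. Of 7 adipocyte markers, 0 rose and 6 fell, with summed levels of 9537 to 10431 in DMSO and 7369 with rotenone. Of 6 tested brown fat markers, 1 rose and 3 fell, with summed levels of 1307 to 1432 CPM in DMSO and 1095 CPM with rotenone. Prdm16 fell by 2.13 ± 0.14, Ucp1 by 1.86 ± 0.21 and Ebf2 by 1.61 ± 0.08, while Cox7a1 rose by 0.20 ± 0.06. The part of these changes in the rise of the members was not tested. Macrophage markers summed to 3.80 to 4.50 CPM in DMSO and 15.5 CPM with rotenone, mostly from Cd68, with Adgre1 and Ptprc at 0 counts in every library. Endothelial markers summed to 2.09 to 2.98 CPM in DMSO and 5.51 CPM with rotenone, and Cdh5 had 1 count in all. Muscle markers summed to 50.5 to 53.2 CPM in DMSO and 39.1 CPM with rotenone; Des was the only gene of this list tested, with Myod1, Myf5 and Myh3 at 0.

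Transcript length moved with the rotenone library too. Its median log2 ratio to the DMSO mean was 0.27 in the shortest of 10 equal length classes of annotated genes tested and -0.27 in the longest, while each DMSO library stayed between -0.02 and 0.04. The members span 1042 to 10012 bases by their longest coding transcript. Those in the shorter 20 had a median log2 fold change of 0.92 and those in the longer 20 of 0.72; after correction for length and GC content these became 0.75 and 0.79. With that correction 35 members were called higher and 0 lower, with a median of 0.75. The correction lowered Nhp2 to 1.35 and Fbl to 0.71. It raised Nop58 (longest coding transcript 9507 bases) to 1.12 and Ncl (8202 bases) to 0.51. Other transcripts of a gene can be shorter, and which ones these cells use was not examined.

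**Figure D4:**
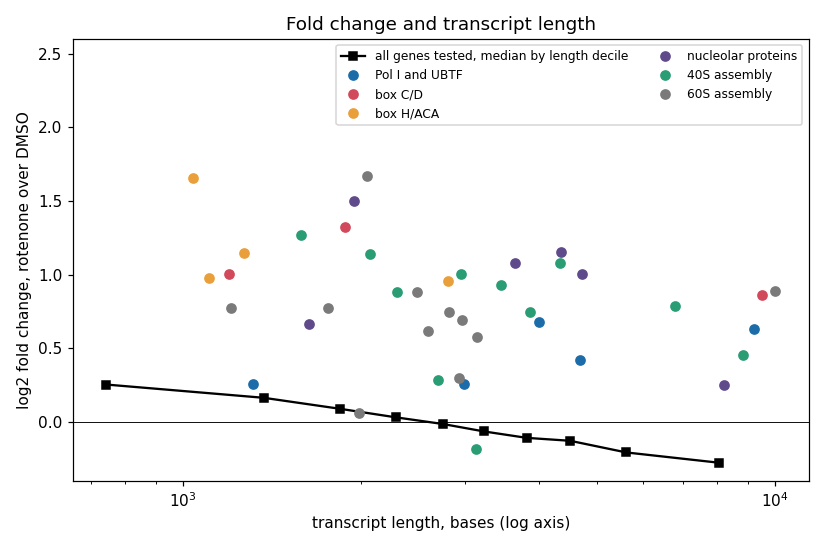
Log2 fold change against transcript length in bases (log axis) for the 40 genes, coloured by role, and for all genes tested as medians of 10 length classes (black squares). The medians fall from 0.25 to -0.28, and 38 of the 40 points lie above 0.1, at short and long annotated lengths alike.

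Exons of 15 members overlap a gene on the opposite strand in GENCODE M21, such as Nop56 with Idh3b and Rrp9 with Parp3. The sources used here do not state whether counting used strand, and part of their reads could come from those genes. Of these 15, 14 were called higher with a median of 0.89, and of the 25 without such an overlap, 21 were called higher with a median of 0.77.

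**Figure D5:**
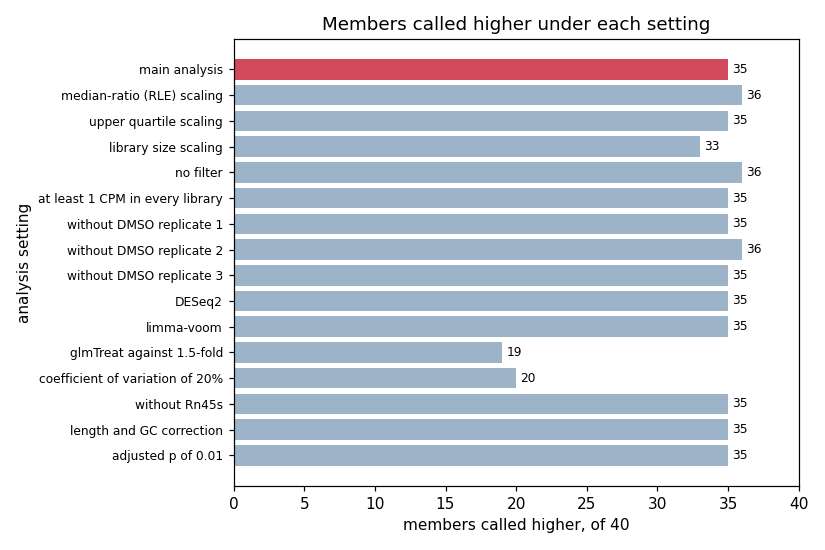
Number of the 40 genes called higher in the main analysis (top bar) and under each of 15 alternative settings. The count is 33 to 36 in all but 2 of them: 20 with an assumed coefficient of variation of 20% and 19 in the test against a 1.5-fold change.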

How the data were processed

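Per the labels' protocols, Trizol was used for total RNA and the NEBNext Ultra kit for the libraries. The authors deposited whole-number read counts per gene symbol, not normalized, in 1 file per sample. Per the submitters' processing notes, TopHat2 and mm10 were used; the counting program, its annotation, strand use and treatment of multi-mapped reads are not stated, so counts of genes with near-identical copies are uncertain. Identical rotenone files entered once. Counts were scaled by TMM and filtered with filterByExpr in edgeR 4.0.16 (R 4.3.3). Groups were compared by robust quasi-likelihood F tests, adjusted by Benjamini-Hochberg over 14709 genes. Each gene had 2 residual degrees of freedom, and its spread was moderated toward a trend over all genes. SEs are the absolute log2 fold change over the root of the F statistic. The limit that a count of 0 allows (3 counts) was 0.103 to 0.139 CPM, covering counting error only. Lengths and GC content came from the longest coding transcript of GENCODE M21 (GRCm38), matched for 14222 tested genes, and were corrected in 8 by 8 bins. On simulated data of 3 libraries against 1 with 14421 genes tested, 76.1%, 98.5% and 100% of genes changed 1.5-fold, 2-fold and 4-fold (67, 67 and 66 genes) were recovered with the correct sign, and 3.17% of calls were false. Changed genes were drawn only from those above a minimum expected count, and every gene was given the same spread beyond counting error. Recovery of genes with few counts was therefore not measured. The simulation gave the lone library the same spread as the others, few changed genes and no length trend. Its share of false calls therefore does not carry over to these data, where the rotenone spread is unknown.

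Members and gene lists were chosen with earlier results of these data known. Named by rule were all members of the polymerase I, box C/D, box H/ACA and nucleolar protein roles, the 3 largest rises and falls in the other roles, up to 2 rises and 2 falls per related list with a mean of at least 5 CPM, and Rn45s. The mean of 5 CPM was taken over all libraries, the rotenone library included. Promoters were to be printed for the 2 largest rises and falls. No member was called lower, so the 2 lowest fold changes were used. A gene that this rule names is not reported here. Other members and markers were named to account for each list. Alternatives were other scalings, filters, DMSO libraries left out, DESeq2 1.42.0, limma-voom (limma 3.58.1), stricter thresholds, a fixed spread, Rn45s left out and the length correction.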

Additional observations from a re-analysis of the deposited data

How the results depend on the processing

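Of 40 members, 35 kept a higher call without each DMSO library in turn, with DESeq2, limma-voom, an adjusted p of 0.01, both other filters, without Rn45s and with the length and GC correction; 19 kept it under every setting tried. The calls of 15 members were lost with an assumed coefficient of variation of 20%, which left 20, and 16 were lost in the edgeR test against a 1.5-fold change, which left 19; both ask for larger differences by construction. In those 2 settings the genes called higher and lower fell from 4054 and 4197 to 1408 and 2063, and to 1203 and 1731. The related lists together had 87 genes called higher and 21 lower, against 29 and 6 with the 20% coefficient of variation, 25 and 6 in the test against 1.5-fold, and 32 lower with library size scaling. Library size scaling moved the median of all genes to -0.16 and that of the members to 0.70. Rrp1 had -0.060 under library size scaling and -0.12 with length and GC content corrected. The median of the other polymerase I genes turned to 0.015 with median-ratio scaling, 0.014 with DESeq2 and 0.0030 with limma-voom, and ran from -0.051 to 0.074 without each DMSO library (the highest without replicate 3); that of the regulators turned to 0.0017 with median-ratio scaling, 0.0016 with DESeq2 and 0.014 with the length and GC correction; the cause was not tested. No paired analysis was possible because the 3 rotenone files hold the same counts and form 1 library. Leaving out the rotenone library leaves no comparison, so its own spread could not be measured. The lowest member count in a library was 100, so depth limits Polr1e and Rrp12 most.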
